A study of Mus musculus with 12 samples.

Results

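The genes described here are 46 genes of DNA replication and S phase, the stage of the cell cycle in which the genome is copied. They were found by matching a list of gene symbols to the symbols in the deposited count table; the matching used no measured value, but the list was drawn up with earlier results of these data known. All 46 were found among the 35602 genes of the table, and all 46 passed the filter on low counts that left 15708 genes for testing.

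The cells were mouse embryonic fibroblasts (MEF), connective tissue cells grown from embryos, kept in high-glucose DMEM with fetal bovine serum and antibiotics. There were 4 groups of 3 libraries: the Ezh2a mutant, the wild type littermates of the Ezh2a mutant, the Ezh2b mutant and the wild type littermates of the Ezh2b mutant. Polyadenylated RNA was sequenced from each. The labels name no agent or treatment that differed between groups. The type of mutation, whether it was carried on one or both alleles, the strain, the age of the embryos and the number of embryos behind each library were not stated in the sources at hand. Nothing in the labels says whether the 3 libraries of a group came from separate embryos or cultures, so p-values measure the spread between these libraries, which may be technical. Ezh2 encodes the enzyme of Polycomb repressive complex 2, which methylates lysine 27 of histone H3 and represses genes.

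Before S phase, origins of replication are licensed: the origin recognition complex (Orc genes), Cdc6 and Cdt1 load the ring made by Mcm2 to Mcm7. At the start of S phase kinases convert that ring, with Cdc45 and the GINS complex, into the working helicase. Primase and polymerase alpha then begin each strand, the sliding clamp PCNA and its loader hand over to polymerases delta and epsilon, and Fen1 and Lig1 join the fragments of the lagging strand. Transcription of many of these genes is controlled by E2F factors, which the RB family holds back until cyclin-dependent kinases release them. Fibroblasts transcribe them mainly while they cycle, and resting or senescent fibroblasts transcribe little of them. In a bulk library, fewer cells in S phase and less RNA per cell cannot be told apart.

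Library totals ran from 28811482 to 54070380 counts, and the 46 genes together took 0.146% to 0.179% of them. The biological coefficient of variation of the fit was 0.047, so that small differences could pass the test. Levels are given as CPM, counts scaled to a common library size, scaled with TMM factors of 0.977 to 1.03. The targeted gene, Ezh2, was measured at 30.5, 30.4 and 30.1 CPM in the Ezh2a wild type and at 14.2, 15.2 and 14.2 CPM in the Ezh2a mutant. In the Ezh2b wild type it was at 33.8, 35.8 and 35.3 CPM, and in the Ezh2b mutant at 35.4, 33.6 and 36.4 CPM. Its level therefore separated the Ezh2a groups and did not separate the Ezh2b groups, with log2 fold changes of -1.07 (SE 0.05, adjusted p = 3.4e-11) and 0.00 (SE 0.05, adjusted p = 0.97). A gene-level count says nothing about a change within the Ezh2 message of the Ezh2b mutant.

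Markers of cell types other than the labelled one were present. The summed level of 10 fibroblast markers was between 41692 and 52227 CPM in every library. The 15 macrophage markers summed to 1752 to 1802 CPM in the Ezh2a wild type, 1608 to 1723 CPM in the Ezh2a mutant, 109 to 120 CPM in the Ezh2b wild type and 500.3 to 539.0 CPM in the Ezh2b mutant, with none of the 15 at 0 in any library. The 8 epithelium and mesothelium markers summed to 9.22 to 78.9 CPM, and the 6 endothelium markers to 5.99 to 14.8 CPM. At most 1 of the 8 and at most 3 of the 6 were at 0 in a library.

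The sequences below are shown because E2F control is the textbook route to these genes. They are the bases just upstream of the start in RefSeq (build GRCm38.p6) of Mcm5, Mcm6, Pola1 and Tyms. Mcm5, Mcm6 and Pola1 fell in the Ezh2b mutant and hold a match upstream. Tyms, which had the largest rise in the Ezh2a mutant of the 46 genes, holds none. Tyms also fell in the Ezh2b mutant, and Mcm5 also rose in the Ezh2a mutant. These sequences are picked examples, and counts over all of the 46 genes with a window follow them. Each is printed 5′ to 3′ on the strand of the gene, 170 bases long, and capitals mark matches to the E2F letters TTTCCCGC, TTTCGCGC, TTTGGCGC or TTTGCCGC on either strand.
Mcm5 (chr8:75109339-75109508, plus strand): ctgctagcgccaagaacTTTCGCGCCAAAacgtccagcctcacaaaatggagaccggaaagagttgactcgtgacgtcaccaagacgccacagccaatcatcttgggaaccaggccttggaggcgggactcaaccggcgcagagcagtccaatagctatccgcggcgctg
Mcm6 (chr1:128359706-128359875, minus strand): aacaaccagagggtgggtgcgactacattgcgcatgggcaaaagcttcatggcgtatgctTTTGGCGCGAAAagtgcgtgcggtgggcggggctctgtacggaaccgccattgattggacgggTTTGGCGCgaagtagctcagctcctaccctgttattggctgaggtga
Pola1 (chrX:93632156-93632325, minus strand): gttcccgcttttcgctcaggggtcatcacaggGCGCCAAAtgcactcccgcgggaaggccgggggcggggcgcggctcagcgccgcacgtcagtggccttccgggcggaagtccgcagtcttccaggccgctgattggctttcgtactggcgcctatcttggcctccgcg
Tyms (chr5:30073626-30073795, minus strand): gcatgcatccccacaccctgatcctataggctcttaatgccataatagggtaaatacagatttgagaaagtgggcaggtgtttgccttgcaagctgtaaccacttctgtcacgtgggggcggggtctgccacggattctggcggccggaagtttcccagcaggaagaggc
In Mcm5 a match on the gene's strand and a match on the other strand overlap, and the same arrangement recurs in Mcm6, which has another match nearer to the start.

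RefSeq windows from 250 bases before to 50 bases after the start were at hand for 38 of the 46 genes, as 43 windows. An E2F match was found in 13 of the 43 windows (30.2%), against 2.26% of all 32851 windows of 27025 genes. The letters CCAAT, on either strand, were in 55.8% of the windows of these genes and in 37.4% of all windows. The CHR letters, TTTGAA, which mark many promoters of genes expressed in G2 and mitosis, were in 11.6% and 17.9%. The windows were not matched on base composition, and a match is a description of letters. Of the 13 genes with an E2F match, 8 fell in the Ezh2b mutant, with a median log2 fold change of -0.22, and of the 25 without one 19 fell, with a median of -0.24.

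In the Ezh2b mutant the replication genes were lower. Of the 46 genes, 33 fell, none rose, and all 46 had a negative log2 fold change. Without Ezh2b wild type replicate 1, 44 were negative and 2 positive. Among all tested genes in this comparison 26.1% were called, 12.1% lower and 14.0% higher. The median over the 46 genes was -0.24 on the log2 scale, which is 0.849 times the level of the wild type, and the median over all tested genes was -0.01. The individual values ran from -0.50 to -0.02. The summed level of the 46 genes was 1729 to 1817 CPM in the 3 wild type libraries and 1495 to 1521 CPM in the 3 mutant libraries, so the groups did not overlap. Called means a Benjamini-Hochberg adjusted p below 0.05 in edgeR's quasi-likelihood test over all tested genes. DESeq2 called 30 of the 46 lower and none higher, and 24.6% of all tested genes in either direction. At an unadjusted p below 0.05 edgeR's test gave 38 of the 46 lower and none higher. Of all 15708 tested genes it gave 2729 lower and 2942 higher. For 34 of the 46 genes all 3 mutant libraries lay below all 3 wild type libraries, against 17.9% of all tested genes.

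In the Ezh2a mutant fewer of the genes moved, and those that did moved up. Of the 46 genes, 9 rose and none fell: Mcm2, Mcm3, Mcm5, Mcm7, Mcm10, Pole, Lig1, Tyms and Chaf1b. Among all tested genes in this comparison 19.8% were called, 9.61% higher and 10.2% lower, so the share of the 46 genes called in either direction, 19.6%, was near that of all genes. The median over the 46 genes was 0.12, or 1.084 times the level of the wild type, with values from -0.13 to 0.33, against a median of -0.00 over all tested genes. Positive values were seen for 37 genes and negative values for 9. The summed level was 1543 to 1545 CPM in the wild type libraries and 1602 to 1680 CPM in the mutant libraries. DESeq2 called 7 of the 46 higher and none lower, and 18.6% of all tested genes in either direction. At an unadjusted p below 0.05 edgeR's test gave 16 of the 46 higher and none lower. Of all 15708 tested genes it gave 2329 higher and 2493 lower. The count of 9 fell to 5 without Ezh2a wild type replicate 2, to 4 without Ezh2a wild type replicate 3 and to 4 without Ezh2a mutant replicate 3. Mcm5, Lig1 and Tyms were the 3 of the 9 called higher under every setting tried.

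**Figure D1:**
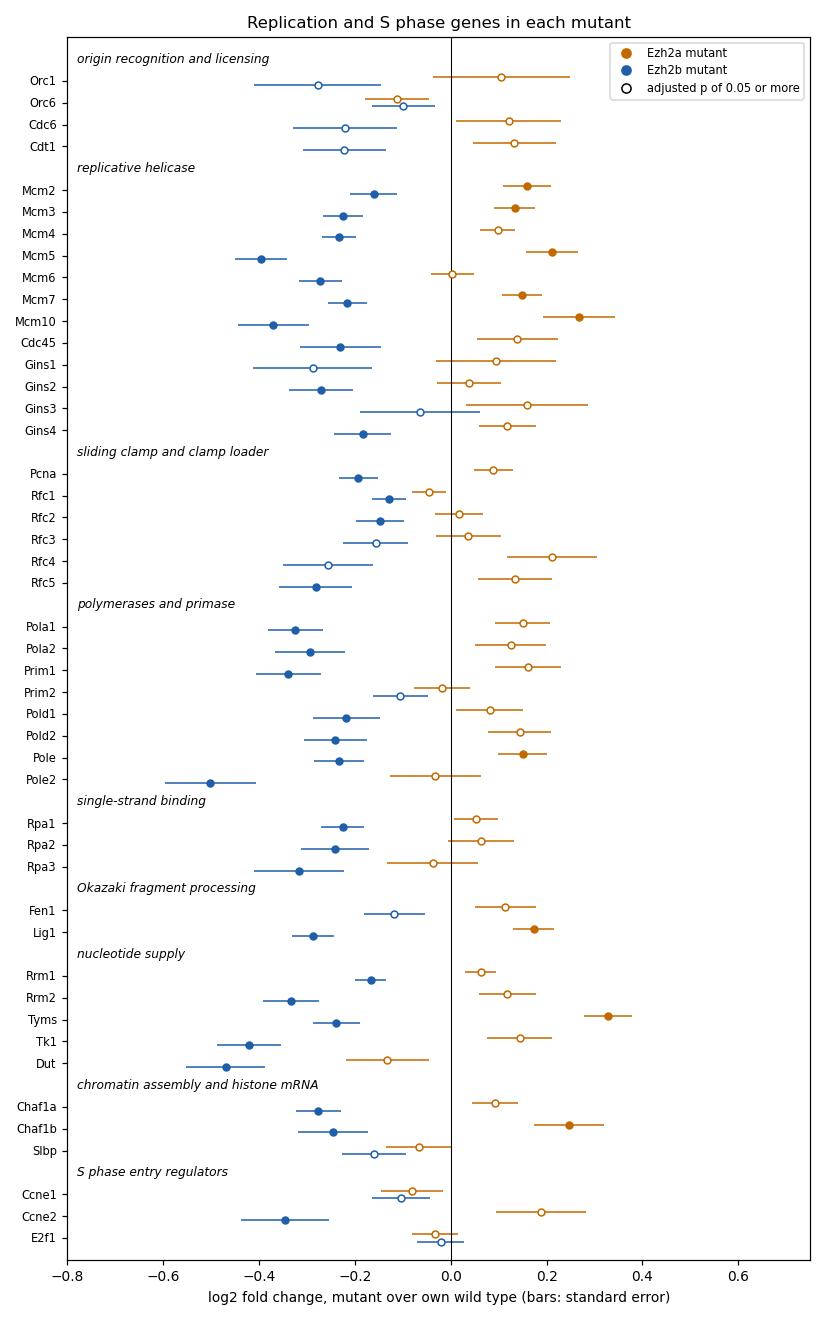
Log2 fold change of each of the 46 genes, mutant over its own wild type, in the Ezh2a mutant (orange) and the Ezh2b mutant (blue), grouped by role. Bars are standard errors from edgeR's fit and open symbols are genes with an adjusted p of 0.05 or more; all 46 blue symbols lie below 0, and 37 of the 46 orange symbols lie above it.

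Among the licensing genes none passed the test in either mutant. Under other settings some were called lower in the Ezh2b mutant. These were Cdt1 with libraries scaled by their totals or with no low-count filter, and Orc1 without Ezh2b mutant replicate 3. Orc1, the largest subunit of the origin recognition complex, had a log2 fold change of 0.11 (SE 0.14) in the Ezh2a mutant and -0.28 (SE 0.13) in the Ezh2b mutant. Cdc6, which joins that complex to load the ring, was at 0.12 (SE 0.11) and -0.22 (SE 0.11). Cdt1, the partner of Cdc6 in loading, was at 0.13 (SE 0.09) and -0.22 (SE 0.09). Orc6, the smallest subunit, was at -0.11 (SE 0.07) and -0.10 (SE 0.07). The standard errors of Orc1 and Cdc6 were more than those of the Mcm genes, and Orc1 was one of the least abundant of the 46 genes per length, at 1.43 CPM per kb of exon in the Ezh2a wild type.

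The replicative helicase held most of the genes that rose in the Ezh2a mutant. Of its 12 genes, 5 rose in the Ezh2a mutant and 10 fell in the Ezh2b mutant, with median log2 fold changes of 0.14 and -0.23. Mcm5 (chr8:75109569-75128439, plus strand), a subunit of the ring, was measured at 49.0, 52.1 and 49.7 CPM in the Ezh2a wild type and 59.1, 55.0 and 60.2 CPM in the Ezh2a mutant. It was measured at 62.3, 66.5 and 56.4 CPM in the Ezh2b wild type and 47.8, 47.0 and 45.4 CPM in the Ezh2b mutant. Mutant and wild type libraries of Mcm5 did not overlap in either pair, and the mutant was the higher group in one pair and the lower in the other. The log2 fold changes were 0.21 (SE 0.05, adjusted p = 0.0087) and -0.40 (SE 0.05, adjusted p = 1.2e-05).

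Mcm7 (chr5:138164583-138172422, minus strand), another subunit, was at 73.2, 73.8 and 69.7 CPM in the Ezh2a wild type and 79.7, 79.5 and 81.0 CPM in the Ezh2a mutant. Across the Ezh2b wild type it was at 89.6, 89.0 and 82.2 CPM and in the Ezh2b mutant at 76.1, 72.5 and 75.7 CPM. Neither pair overlapped, and the log2 fold changes were 0.15 (SE 0.04, adjusted p = 0.013) and -0.22 (SE 0.04, adjusted p = 0.00039). Without Ezh2a wild type replicate 3 the adjusted p of the first was 0.0765.

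Mcm10 (chr2:4989714-5012791, minus strand), which helps start the helicase, was at 10.7, 11.1 and 10.7 CPM in the Ezh2a wild type and 12.7, 12.2 and 14.2 CPM in the Ezh2a mutant. In the Ezh2b wild type it was at 13.2, 13.2 and 12.6 CPM and in the Ezh2b mutant at 9.81, 9.65 and 10.7 CPM. Both pairs were separate, with log2 fold changes of 0.27 (SE 0.07, adjusted p = 0.015) and -0.37 (SE 0.07, adjusted p = 0.00077). Without Ezh2a mutant replicate 3, the highest library, the adjusted p of the first was 0.0901.

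Mcm2 (chr6:88883474-88898780, minus strand), a subunit that also binds histones, was at 67.9, 65.9 and 66.8 CPM in the Ezh2a wild type and 76.1, 73.3 and 74.6 CPM in the Ezh2a mutant. Across the Ezh2b wild type it was at 80.0, 84.6 and 71.2 CPM and in the Ezh2b mutant at 70.2, 68.5 and 71.6 CPM. The Ezh2b groups overlapped through the third wild type library. Its log2 fold changes, 0.16 (SE 0.05, adjusted p = 0.029) and -0.16 (SE 0.05, adjusted p = 0.019), did not all hold when single libraries of the pair were left out. The first passed without Ezh2a mutant replicate 2 and was at an adjusted p of 0.0552 to 0.0965 in the other 5 such fits. The second passed without Ezh2b wild type replicate 3 or Ezh2b mutant replicate 3, was at an adjusted p of 0.0600 to 0.145 in the other 4, and shrank to -0.099 without Ezh2b wild type replicate 2.

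Mcm4 (chr16:15623897-15637400, minus strand) was at 68.2, 71.8 and 71.6 CPM in the Ezh2a wild type and 75.0, 73.7 and 77.6 CPM in the Ezh2a mutant. In the Ezh2b wild type it was at 83.6, 86.1 and 84.2 CPM and in the Ezh2b mutant at 71.7, 72.1 and 72.1 CPM. It fell in the Ezh2b mutant, by 0.23 on the log2 scale (SE 0.04, adjusted p = 5.0e-05), and its value in the Ezh2a mutant, 0.10 (SE 0.04, adjusted p = 0.069), did not pass the test although the libraries did not overlap. Mcm6 (chr1:128331590-128359664, minus strand) was at 101, 108 and 101 CPM in the Ezh2a wild type, 103, 99.9 and 106 CPM in the Ezh2a mutant, 117, 115 and 110 CPM in the Ezh2b wild type and 98.5, 96.3 and 88.0 CPM in the Ezh2b mutant. The Ezh2a groups overlapped, at 0.00 (SE 0.05, adjusted p = 0.98), and the Ezh2b groups were separate, at -0.27 (SE 0.04, adjusted p = 1.0e-04), both on the log2 scale.

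The other helicase genes were given by fold change. Mcm3, the remaining ring subunit, rose by 0.13 (SE 0.04) in the Ezh2a mutant, a call that DESeq2 did not make, and fell by 0.22 (SE 0.04) in the Ezh2b mutant. Cdc45, which binds the ring in the working helicase, was at 0.14 (SE 0.08) in the Ezh2a mutant and fell by 0.23 (SE 0.08) in the Ezh2b mutant, where its adjusted p of 0.0498 was just inside the threshold. Of the GINS genes, Gins2 and Gins4 fell in the Ezh2b mutant, by 0.27 (SE 0.07) and 0.18 (SE 0.06), and Gins1 and Gins3 were at -0.29 (SE 0.12) and -0.06 (SE 0.13). In the Ezh2a mutant the GINS genes lay between 0.04 and 0.16 and none passed.

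**Figure D2:**
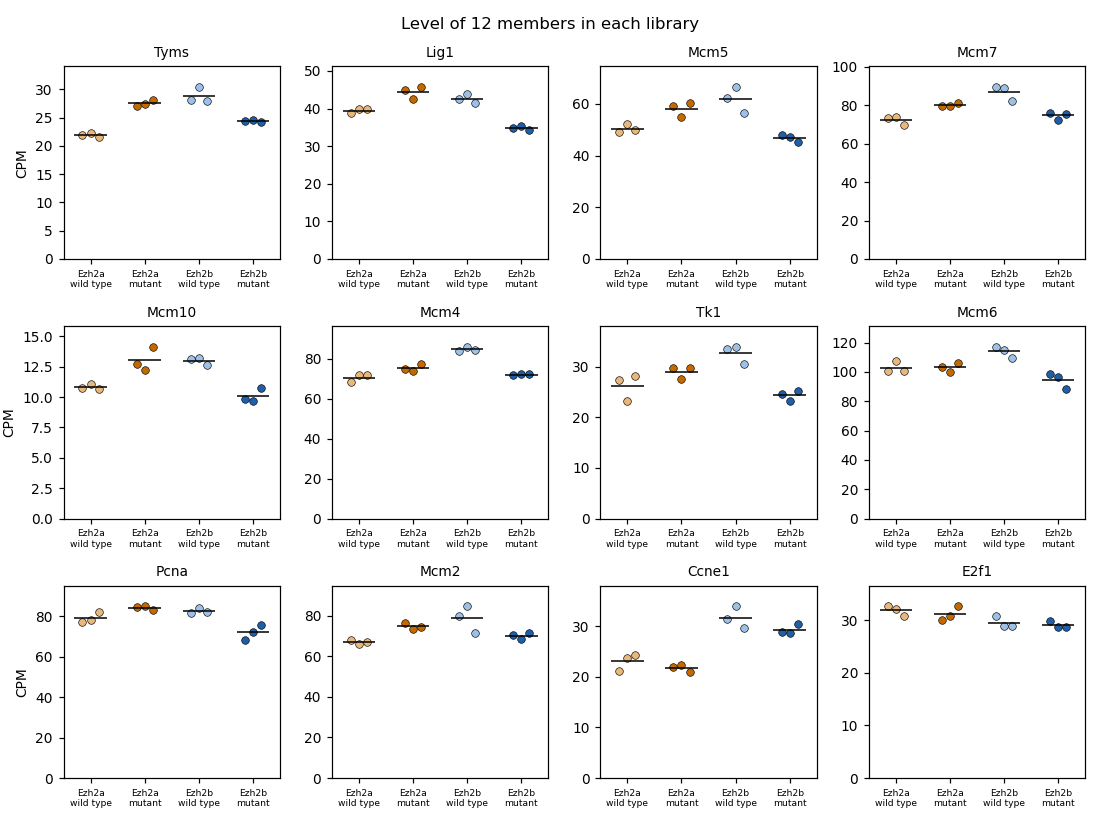
CPM of each of the 12 genes given library by library, 1 point per library and a line at the mean of each group of 3, with a linear axis from 0 in each panel. Mcm5, Tyms and Lig1 are higher in the Ezh2a mutant than in its wild type and lower in the Ezh2b mutant than in its wild type; for E2f1 both mutants overlap their wild types.

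At the fork, the clamp and its loader fell in the Ezh2b mutant for 4 of 6 genes, and none passed in the Ezh2a mutant. Pcna (chr2:132249162-132253314, minus strand), the sliding clamp, was the most abundant of the 46 genes per length, at 32.9 CPM per kb of exon in the Ezh2a wild type. It was at 77.0, 78.0 and 82.1 CPM in the Ezh2a wild type, 84.2, 84.9 and 83.0 CPM in the Ezh2a mutant, 81.4, 83.8 and 82.2 CPM in the Ezh2b wild type and 68.0, 72.3 and 75.8 CPM in the Ezh2b mutant. Both pairs were separate, but only the Ezh2b value passed, at -0.19 (SE 0.04, adjusted p = 0.0012) against 0.09 (SE 0.04, adjusted p = 0.15) in the Ezh2a mutant. Of the genes for the clamp loader, Rfc5, Rfc2 and Rfc1 fell in the Ezh2b mutant, by 0.28 (SE 0.08), 0.15 (SE 0.05) and 0.13 (SE 0.04). Rfc4 was at -0.26 (SE 0.09) with an adjusted p of 0.0502, just outside the threshold, and Rfc3 at -0.16 (SE 0.07). The loader genes ran from -0.05 for Rfc1 to 0.21 for Rfc4 in the Ezh2a mutant.

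Of the 8 polymerase and primase genes, 7 fell in the Ezh2b mutant and 1, Pole, rose in the Ezh2a mutant. Pole2, the second subunit of polymerase epsilon, had the lowest value of the 46 genes in the Ezh2b mutant, -0.50 (SE 0.09), and was at -0.03 (SE 0.09) in the Ezh2a mutant. Pole, the catalytic subunit, rose by 0.15 (SE 0.05) in the Ezh2a mutant and fell by 0.23 (SE 0.05) in the Ezh2b mutant. The rise of Pole did not pass with RLE factors, with DESeq2, or without any 1 library of the Ezh2a pair. The genes of the complex that starts each strand, Prim1, Pola1 and Pola2, fell by 0.34 (SE 0.07), 0.32 (SE 0.06) and 0.29 (SE 0.07) in the Ezh2b mutant. They were at 0.16, 0.15 and 0.12 in the Ezh2a mutant, none of which passed. Prim2, the large primase subunit, was at -0.11 (SE 0.06) in the Ezh2b mutant, the one gene of this role that did not pass. Pold1 and Pold2, subunits of polymerase delta, fell by 0.22 (SE 0.07) and 0.24 (SE 0.07), though the libraries of Pold1 overlapped.

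All 3 subunits of replication protein A, which covers single-stranded DNA, fell in the Ezh2b mutant: Rpa1 by 0.23 (SE 0.05), Rpa2 by 0.24 (SE 0.07) and Rpa3 by 0.32 (SE 0.09). None passed in the Ezh2a mutant, where they were at 0.05, 0.06 and -0.04. Lig1 (chr7:13277283-13311433, plus strand), the ligase that seals lagging-strand fragments, was at 38.7, 39.8 and 39.9 CPM in the Ezh2a wild type and 45.0, 42.6 and 45.7 CPM in the Ezh2a mutant. Across the Ezh2b wild type it was at 42.5, 43.9 and 41.4 CPM and in the Ezh2b mutant at 34.8, 35.3 and 34.4 CPM. Both pairs were separate in opposite directions, at 0.17 (SE 0.04, adjusted p = 0.0069) and -0.29 (SE 0.04, adjusted p = 3.6e-05). Fen1, the nuclease that trims those fragments, was at 0.11 (SE 0.06) and -0.12 (SE 0.06), and neither passed; 78.8% of its exon bases also lie in the exons of Gm10143.

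Nucleotide supply was the role with the lowest median in the Ezh2b mutant, -0.33, and all 5 of its genes fell. Tyms (chr5:30058202-30073617, minus strand), thymidylate synthase, had the highest value of the 46 genes in the Ezh2a mutant. It was at 21.9, 22.3 and 21.6 CPM in the Ezh2a wild type and 27.1, 27.4 and 28.2 CPM in the Ezh2a mutant, and at 28.1, 30.4 and 28.0 CPM in the Ezh2b wild type and 24.4, 24.5 and 24.3 CPM in the Ezh2b mutant. The Ezh2a wild type was the lowest group and the Ezh2b wild type the highest. The log2 fold changes were 0.33 (SE 0.05, adjusted p = 8.6e-05) and -0.24 (SE 0.05, adjusted p = 0.00093).

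Tk1 (chr11:117815526-117826092, minus strand), thymidine kinase, which salvages thymidine in S phase, was at 27.3, 23.1 and 28.2 CPM in the Ezh2a wild type and 29.8, 27.5 and 29.7 CPM in the Ezh2a mutant. In the Ezh2b wild type it was at 33.5, 33.9 and 30.4 CPM and in the Ezh2b mutant at 24.5, 23.2 and 25.2 CPM. The Ezh2a groups overlapped, at 0.14 (SE 0.07, adjusted p = 0.16), and the Ezh2b groups did not, at -0.42 (SE 0.07, adjusted p = 7.2e-05). Dut, which breaks down dUTP, fell by 0.47 (SE 0.08) in the Ezh2b mutant and was at -0.13 (SE 0.09) in the Ezh2a mutant, the lowest value of the 46 genes there. The subunits of ribonucleotide reductase, Rrm2 and Rrm1, fell by 0.33 (SE 0.06) and 0.17 (SE 0.03) in the Ezh2b mutant and were at 0.12 and 0.06 in the Ezh2a mutant.

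Chaf1b and Chaf1a, subunits of the factor that places histones on new DNA, fell by 0.25 (SE 0.07) and 0.28 (SE 0.05) in the Ezh2b mutant. Chaf1b rose by 0.25 (SE 0.07) in the Ezh2a mutant, where Chaf1a was at 0.09 (SE 0.05). Slbp, which binds the ends of histone messages, was at -0.07 (SE 0.07) and -0.16 (SE 0.07).

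The regulators of entry into S phase did not move together. Ccne2, a cyclin that activates Cdk2, fell by 0.35 (SE 0.09) in the Ezh2b mutant and was at 0.19 (SE 0.09) in the Ezh2a mutant. Ccne1 (chr7:38097984-38107534, minus strand), its paralog, was at 21.1, 23.8 and 24.4 CPM in the Ezh2a wild type, 22.0, 22.4 and 21.0 CPM in the Ezh2a mutant, 31.3, 33.9 and 29.6 CPM in the Ezh2b wild type and 28.9, 28.6 and 30.4 CPM in the Ezh2b mutant. Each mutant overlapped its wild type, and both Ezh2b groups lay above both Ezh2a groups. Its log2 fold changes were -0.08 (95% interval -0.22 to 0.05, adjusted p = 0.44) and -0.10 (95% interval -0.23 to 0.02, adjusted p = 0.24).

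E2f1 (chr2:154559407-154569892, minus strand), an activator of many of these genes, was at 32.6, 32.1 and 30.8 CPM in the Ezh2a wild type, 30.1, 30.7 and 32.6 CPM in the Ezh2a mutant, 30.7, 28.9 and 29.0 CPM in the Ezh2b wild type and 29.8, 28.8 and 28.7 CPM in the Ezh2b mutant. Each mutant overlapped its wild type. The log2 fold changes were -0.03 (95% interval -0.14 to 0.07, adjusted p = 0.70) and -0.02 (95% interval -0.12 to 0.08, adjusted p = 0.81), so a change of E2f1 message as large as the median of the 46 genes in the Ezh2b mutant, -0.24, lay outside the interval there.

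The 9 genes that rose in the Ezh2a mutant were all among the 33 that fell in the Ezh2b mutant, 9 of 9 and 9 of 33. Since 71.7% of the 46 genes fell in the Ezh2b mutant, much of this overlap follows from that share. A further 24 fell in the Ezh2b mutant and did not pass in the Ezh2a mutant, and 13 passed in neither: Orc1, Orc6, Cdc6, Cdt1, Gins1, Gins3, Rfc3, Rfc4, Prim2, Fen1, Slbp, Ccne1 and E2f1. The comparisons share no library. Across the 46 genes the log2 fold changes of the 2 mutants had a Pearson's r of -0.22 and a Spearman's rho of -0.34, given as a description, since the genes share their libraries and the scaling of each.

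The difference between the mutant effects was tested in the same fit, as the Ezh2b effect minus the Ezh2a effect, and it reuses the libraries of both comparisons. It was negative and past the threshold for 32 of the 46 genes and positive for none past the threshold, where 26.5% of all tested genes were called in either direction and 11.9% lower. The median difference was -0.35 on the log2 scale, with a range of -0.64 to 0.01. DESeq2 called 31 of the 46 lower and none higher, and 25% of all tested genes in either direction. At an unadjusted p below 0.05 edgeR's test gave 36 of the 46 lower and none higher. Of all 15708 tested genes it gave 2629 lower and 3016 higher. The lowest differences were those of Mcm10, -0.64 (SE 0.11, adjusted p = 0.00011), and Mcm5, -0.61 (SE 0.08, adjusted p = 4.7e-06). Tyms followed at -0.57 (SE 0.07, adjusted p = 3.6e-06) and Tk1 at -0.57 (SE 0.10, adjusted p = 0.00014). Lig1 was at -0.46 (SE 0.06, adjusted p = 8.6e-06). The difference also passed for Cdt1 and Rfc4, at -0.35 and -0.47, which passed in neither mutant alone. It did not pass for Ccne1, -0.02 (95% interval -0.21 to 0.16, adjusted p = 0.89), or E2f1, 0.01 (95% interval -0.13 to 0.16, adjusted p = 0.92).

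The wild types themselves differed. Set against the Ezh2a wild type, 25 of the 46 genes were higher in that of Ezh2b and none was lower. Of all tested genes 42.3% were called in either direction, 20.4% higher and 21.8% lower. For 28 genes all 3 Ezh2b wild type libraries lay above all 3 of Ezh2a, against 23.4% of all tested genes. The median was 0.18 on the log2 scale, or 1.132 times, against -0.00 over all tested genes. The summed level of the 46 genes was 1544 ± 1.18 CPM in the Ezh2a wild type, 1637 ± 39.7 in the Ezh2a mutant, 1771 ± 44.4 in the Ezh2b wild type and 1511 ± 14.4 in the Ezh2b mutant (mean ± SD, n = 3). The Ezh2b wild type was thus the highest group and the Ezh2b mutant the lowest, and the means of the 2 wild types lay farther apart than those of the Ezh2a mutant and its wild type. Orc1, Dut, Rrm2 and Ccne1 had the largest differences between wild types, 0.64 (SE 0.14), 0.56 (SE 0.08), 0.52 (SE 0.06) and 0.45 (SE 0.06). DESeq2 called 24 of the 46 higher and none lower, and 39.6% of all tested genes in either direction. At an unadjusted p below 0.05 edgeR's test gave 27 of the 46 higher and 1 lower, E2f1. Of all 15708 tested genes it gave 3731 higher and 3971 lower. Line, embryo and culture cannot be told apart between these wild types, and this comparison uses the control libraries of both mutant comparisons.

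**Figure D3:**
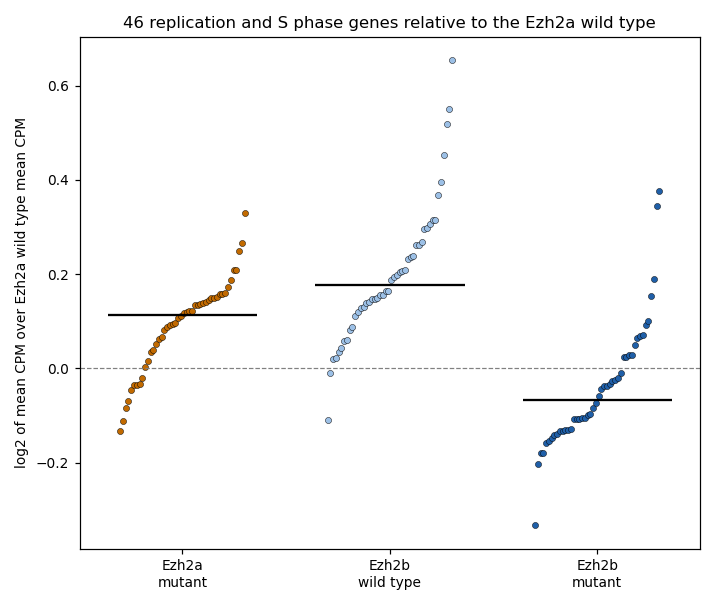
Log2 of the mean CPM of each of the 46 genes over its mean CPM in the Ezh2a wild type, sorted within each group, with a line at the median. The medians are 0.11 in the Ezh2a mutant, 0.18 in the Ezh2b wild type and -0.07 in the Ezh2b mutant; all columns share the Ezh2a wild type as denominator, so they are not independent.

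Within groups, the libraries also differed together. In the Ezh2a mutant, replicate 3 was the highest of the 3 libraries for 27 of the 46 genes and replicate 2 the lowest for 26. In the Ezh2b wild type, replicate 2 was the highest for 27 genes and replicate 3, the most deeply sequenced of the 12 libraries, was the lowest for 27. Leaving out each of the 12 libraries in turn left between 27 and 33 of the 46 genes lower in the Ezh2b mutant. Of the 33 genes called there, 22 were called lower under every setting tried, and the 11 that were not are Mcm2, Cdc45, Gins4, Rfc2, Rfc5, Pola2, Pold1, Pold2, Rpa2, Rpa3 and Chaf1b.

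In each mutant comparison most other genes of the replication pathway were not called. Of 31 further replication genes, 6 rose in the Ezh2a mutant with none falling, and 1 rose and 11 fell in the Ezh2b mutant, with median log2 fold changes of 0.13 and -0.17. In the Ezh2a mutant 19.4% were higher, against 9.61% of all tested genes, and 19.4% were called in either direction, near the 19.8% of all. In the Ezh2b mutant 35.5% were lower, against 12.1% of all, and 38.7% were called in either direction, against 26.1%. With libraries scaled by their totals 13 were higher in the Ezh2a mutant and 17 lower in the Ezh2b mutant. Ticrr, needed for origins to fire, rose by 0.46 (SE 0.09) in the Ezh2a mutant and fell by 0.29 (SE 0.09) in the Ezh2b mutant. Chtf18, a subunit of an alternative clamp loader, rose by 0.36 (SE 0.08) and fell by 0.32 (SE 0.08). Pif1, a helicase, rose by 0.44 (SE 0.08) in the Ezh2a mutant and was at -0.14 (SE 0.08) in the Ezh2b mutant. Cdc7 and Dbf4, the kinase that fires origins and its activator, fell by 0.41 (SE 0.07) and 0.30 (SE 0.06) in the Ezh2b mutant. They were at 0.19 and 0.12 in the Ezh2a mutant. Wdhd1, which ties polymerase alpha to the helicase, fell by 0.33 (SE 0.07) in the Ezh2b mutant and was at 0.14 in the Ezh2a mutant.

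Upstream of these genes, the 33 E2F and RB regulators were split. In the Ezh2a mutant 7 rose and 2 fell, and in the Ezh2b mutant 5 rose and 11 fell. Without Ezh2b mutant replicate 1 the count of 11 was 6. In the Ezh2a mutant 21.2% were higher and 6.06% lower, against 9.61% and 10.2% of all tested genes. In the Ezh2b mutant 15.2% were higher, near the 14.0% of all tested genes, and 33.3% were lower, against 12.1%. Cdkn2a, the locus of a CDK inhibitor and of Arf and a Polycomb target, fell by 0.90 (SE 0.05) in the Ezh2a mutant and by 0.26 (SE 0.04) in the Ezh2b mutant. Ccnd1, cyclin D1, rose by 0.13 (SE 0.04) in the Ezh2a mutant and fell by 0.39 (SE 0.04) in the Ezh2b mutant. Cdkn1a, the CDK inhibitor downstream of p53, went the other way, falling by 0.17 (SE 0.04) and rising by 0.33 (SE 0.04). Cdkn1c, another CDK inhibitor, rose by 0.61 (SE 0.11) and 0.65 (SE 0.11). Cdk6, a kinase of the RB proteins, was at 0.07 (SE 0.05) in the Ezh2a mutant and rose by 0.63 (SE 0.05) in the Ezh2b mutant. Cdkn2c, an inhibitor of CDK4 and CDK6 and itself an E2F target, rose by 0.46 (SE 0.07) in the Ezh2a mutant and fell by 0.30 (SE 0.07) in the Ezh2b mutant.

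A list of genes coupled to S phase through chromatin and repair had 26 members. Of the 26, 11 rose in the Ezh2a mutant with none falling, and 18 fell in the Ezh2b mutant with none rising, with medians of 0.17 and -0.27. Without Ezh2a wild type replicate 1 the count of 11 was 7. In the Ezh2a mutant 42.3% were higher, against 9.61% of all tested genes. In the Ezh2b mutant 69.2% were lower, against 12.1% of all tested genes. Dnmt1, the maintenance DNA methyltransferase, rose by 0.20 and fell by 0.16, and Uhrf1, which brings it to new DNA, rose by 0.22 (SE 0.05) and fell by 0.31 (SE 0.05). Tmpo, a nuclear lamina protein, rose by 0.30 (SE 0.04) and fell by 0.33 (SE 0.04). Usp1, a deubiquitinase of PCNA, was at 0.13 (SE 0.05) in the Ezh2a mutant and fell by 0.36 (SE 0.05) in the Ezh2b mutant. Asf1b, a histone chaperone, rose by 0.34 (SE 0.07) in the Ezh2a mutant and was at -0.16 (SE 0.07) in the Ezh2b mutant.

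The G2 and mitosis genes had larger medians than the replication genes. Of 36, 31 rose in the Ezh2a mutant with none falling, and 34 fell in the Ezh2b mutant with none rising, with medians of 0.25 and -0.36. Their summed level had group means of 1834, 2173, 2367 and 1851 CPM in the Ezh2a wild type, Ezh2a mutant, Ezh2b wild type and Ezh2b mutant. Of the 36 genes 86.1% were higher in the Ezh2a mutant, against 9.61% of all tested genes. In the Ezh2b mutant 94.4% were lower, against 12.1%. Ccna2, the cyclin of S phase and G2, rose by 0.41 (SE 0.05) and fell by 0.45 (SE 0.04). Anln and Prc1, which act in cytokinesis, fell by 0.48 and 0.42 in the Ezh2b mutant; in the Ezh2a mutant Prc1 rose by 0.16 and Anln was at 0.10, which did not pass. Cdc20, an activator of the anaphase-promoting complex, rose by 0.15 and fell by 0.45. Cenpf, a kinetochore protein, rose by 0.39 and fell by 0.35, and Mki67, the Ki-67 antigen, rose by 0.29 and fell by 0.33.

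**Figure D4:**
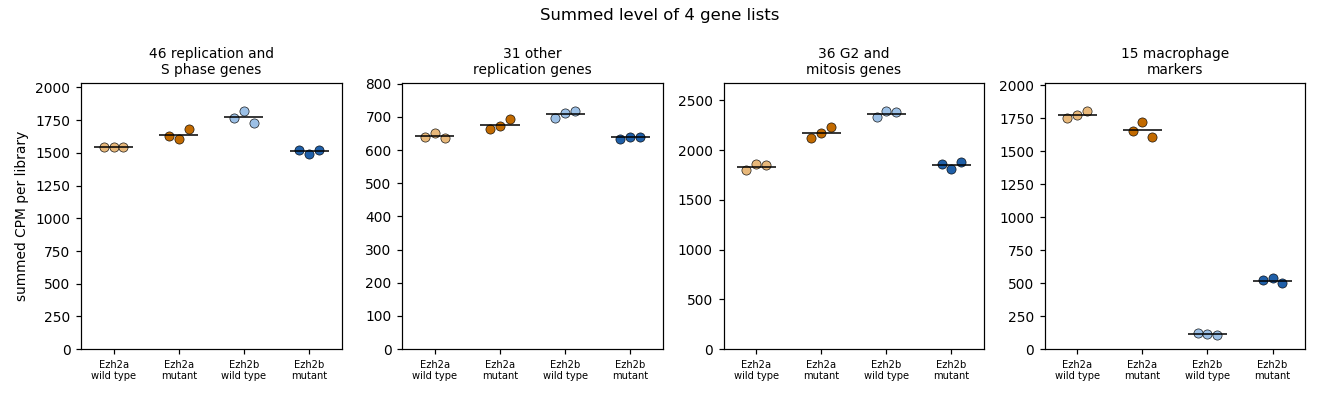
Summed CPM per library of the 46 replication and S phase genes, 31 other replication genes, 36 G2 and mitosis genes and 15 macrophage markers, 1 point per library and a line at the mean of each group of 3, with axes from 0. The sum of the 46 genes is 1543 to 1545 CPM in the Ezh2a wild type and 1602 to 1680 CPM in the Ezh2a mutant. It is 1729 to 1817 CPM in the Ezh2b wild type and 1495 to 1521 CPM in the Ezh2b mutant. The macrophage sum is 1752 to 1802 CPM in the Ezh2a wild type and 1608 to 1723 CPM in the Ezh2a mutant. It is 109 to 120 CPM in the Ezh2b wild type and 500.3 to 539.0 CPM in the Ezh2b mutant.

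Markers of other cells moved with these comparisons. In the Ezh2b mutant all 15 macrophage markers were higher, with a median log2 fold change of 2.06, and of the 10 fibroblast markers 8 were higher and 1 was lower, with summed levels of 41692 to 45339 CPM in the wild type and 47478 to 49396 CPM in the mutant. Of the 7 epithelium and mesothelium markers that could be tested, 6 were higher in the Ezh2b mutant, with sums of 25.6 to 28.4 CPM against 9.22 to 11.0 CPM, and 6 were lower in the Ezh2a mutant, with sums of 35.6 to 38.2 CPM against 73.3 to 78.9 CPM. In the Ezh2a mutant 2 macrophage markers were higher and 3 were lower. Between the wild types all 15 macrophage markers were lower in the Ezh2b wild type, with a median of -3.70, as were 9 of the 10 fibroblast markers, with a median of -0.41, and all 7 tested epithelium and mesothelium markers, with a median of -3.39. The endothelium markers summed to 12.8 to 14.2 CPM in the Ezh2a wild type, 8.30 to 9.36 CPM in the Ezh2a mutant, 13.2 to 14.8 CPM in the Ezh2b wild type and 5.99 to 6.72 CPM in the Ezh2b mutant. Most of these counts were of Kdr, and the markers did not move together. Of the 3 that could be tested, 1 was higher and 1 lower in the Ezh2a mutant, and 1 was higher and 2 lower in the Ezh2b mutant. The part of these cells in the levels of the replication genes was not tested.

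The labels' protocol names no step that marks strand and whether the counting used strand is not known, so the counts of overlapping genes are uncertain. Exon bases are shared with another gene for 17 of the 46 genes, most of all Fen1 with Gm10143 (78.8% of exon bases), Gins2 with Gse1 (67.3%) and Chaf1a with Ubxn6 (52.5%). Some smaller overlaps are with neighbours of far higher counts. Median counts were 7731 for Eif4a2 against 293 for Rfc4, and 7562.5 for Vps35 against 644.5 for Orc6. They were 5389.5 for Wsb2 against 538 for Rfc5, and 1834 for Ints8 against 332 for Ccne2. Rfc5 and Ccne2 are among the genes called lower in the Ezh2b mutant. Among the 29 genes without any shared bases 21 fell in the Ezh2b mutant and 6 rose in the Ezh2a mutant. For 9 genes, Cdc6, Mcm4, Mcm7, Pcna, Rfc5, Rpa3, Rrm2, Slbp and Tyms, the annotation holds a pseudogene copy with at least 90% identity over at least 300 bases and 15% of the transcript, and their counts are uncertain to the extent that reads were split between copies.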

How the data were processed

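RNA-seq of 12 libraries was used, in 4 groups of 3 taken from the sample titles. Per the labels' protocols, polyadenylated RNA was purified from total RNA, fragmented and copied with random hexamers. The authors deposited whole-number counts per gene for all libraries in a single table; the submitters' processing notes name fastp 0.21.0, HISAT2 2.1.0, StringTie 2.1.5, edgeR 4.2.1 and the build GRCm38 (mm10), without the role of each. No source used here gives the counting tool or its strand setting.

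Genes were kept by edgeR's filter by group (15708 of 35602), scaled by TMM and fitted in edgeR 4.0.16 (R 4.3.3) with the quasi-likelihood test on all 12 libraries, with 8 residual degrees of freedom before moderation. The contrasts set a mutant against the wild type of its own line, the Ezh2b effect against the Ezh2a effect, and one wild type against the other. Benjamini-Hochberg adjustment ran over all 15708 genes, and adjusted p below 0.05 was called. Standard errors were derived from the fold change and F statistic. DESeq2 1.42.0 and other settings served as alternatives. The fit was also run on simulated counts with independent libraries and changes in the Ezh2b mutant only. That run cannot speak to libraries of a group that differ together.

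The 46 genes and the comparison lists were chosen with earlier results of these data known. Values in every library are given for the genes with the 5 lowest adjusted p in each mutant comparison and in the difference, and for Pcna, Mcm2, Ccne1 and E2f1; of each other list the 3 genes with the lowest adjusted p in each mutant comparison are named. Positions and exon overlaps come from GENCODE M21 (GRCm38), promoter sequences from RefSeq, and near copies from blastn 2.17.0. Fold changes rest on the assumption that most genes do not move.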

Additional observations from a re-analysis of the deposited data

Results flagged for a closer look

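Each result given here stood out because the Ezh2b comparison differed from the Ezh2a comparison by a test of the difference itself, in the same edgeR fit. Mutation, line, embryo and culture cannot be told apart in this difference, and the part of other cell types was not tested. Values are the Ezh2b log2 fold change minus the Ezh2a log2 fold change, both against their own wild types, and each passed an adjusted p below 0.05. For Ezh2 itself the difference was 1.07.

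Among the 46 replication and S phase genes 32 differed, all with a lower value in the Ezh2b mutant. In licensing, Cdt1 differed by -0.35. In the helicase, the differences were -0.32 for Mcm2, -0.36 for Mcm3, -0.33 for Mcm4, -0.61 for Mcm5, -0.28 for Mcm6, -0.36 for Mcm7 and -0.64 for Mcm10. They were -0.37 for Cdc45, -0.31 for Gins2 and -0.30 for Gins4. At the clamp and its loader, they were -0.28 for Pcna, -0.47 for Rfc4 and -0.42 for Rfc5. Among polymerases and primase, they were -0.47 for Pola1, -0.42 for Pola2, -0.50 for Prim1, -0.30 for Pold1, -0.38 for Pold2, -0.38 for Pole and -0.47 for Pole2. Rpa1 differed by -0.28, Rpa2 by -0.30 and Lig1 by -0.46. In nucleotide supply, the differences were -0.23 for Rrm1, -0.45 for Rrm2, -0.57 for Tyms, -0.57 for Tk1 and -0.34 for Dut. Chaf1a differed by -0.37, Chaf1b by -0.49 and Ccne2 by -0.53.

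The 23 other named genes were picked for the lowest adjusted p of their lists in these same mutant comparisons, so their count is no evidence of a difference; among all tested genes 26.5% were called. The values of the 22 that passed follow, and that of Cdkn1c did not pass. Among other replication genes, the differences were -0.60 for Cdc7, -0.42 for Dbf4, -0.47 for Wdhd1, -0.75 for Ticrr, -0.68 for Chtf18 and -0.58 for Pif1. Among cell cycle regulators, they were -0.52 for Ccnd1, 0.56 for Cdk6, 0.50 for Cdkn1a, 0.65 for Cdkn2a and -0.76 for Cdkn2c. Among S phase coupled chromatin and repair genes, they were -0.53 for Uhrf1, -0.37 for Dnmt1, -0.50 for Asf1b, -0.49 for Usp1 and -0.64 for Tmpo. Among G2 and mitosis genes, they were -0.86 for Ccna2, -0.60 for Cdc20, -0.62 for Mki67, -0.74 for Cenpf, -0.58 for Prc1 and -0.58 for Anln.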

How the results depend on the processing

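The counts of the 46 genes called lower in the Ezh2b mutant (33) and in the difference (32) stayed within 27 to 37 and 27 to 36 under every setting tried. The 9 genes called higher in the Ezh2a mutant became 13 when libraries were scaled by their totals, a scaling that moved the median of all genes by 0.04 in the Ezh2a comparison and -0.03 in the Ezh2b comparison, 11 when only the groups compared were fitted, 7 with DESeq2 and 4 to 11 when each of the 12 libraries was left out in turn. Between the wild types the count lower in that of Ezh2b, 0, ranged from 0 to 1 when 1 library was left out. No called gene of the 46 took the opposite call in any setting.

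Same-numbered libraries did not deviate together (r of -0.05, -0.02 and -0.01 in the Ezh2a pairs and -0.08, -0.08 and -0.06 in the Ezh2b pairs), so the numbers were not treated as pairs. Some differently numbered Ezh2b libraries had positive values. These were 0.16 for wild type 1 with mutant 2, 0.13 for wild type 2 with mutant 3 and 0.12 for wild type 3 with mutant 1. The remaining Ezh2b values were negative. Deviations were taken from the mean of each group, so the values within a set are tied and their signs are not independent. Whether the libraries with positive values belong together was not tested. With the replicate block 8 of the 46 genes were called higher in the Ezh2a mutant, 30 lower in the Ezh2b mutant and 32 lower in the difference, and 2852, 3854 and 3909 of all genes were called. No paired analysis was possible for the wild types because the block could not be estimated there.

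Signs were followed for the genes given library by library, and values that changed sign were uncalled on both sides. Over all 46 genes, library totals left 5 negative in the Ezh2a mutant, against 9 with TMM factors. In the difference, 2 genes were positive with TMM factors and none with library totals. Mcm6 in the Ezh2a mutant was -0.00087 with RLE scaling, -0.00086 with DESeq2 and -0.015 to 0.036 without single libraries. E2f1 was 0.0083 in the Ezh2a mutant and -0.060 in the difference with library totals, and without single libraries -0.033 to 0.011 in the Ezh2b mutant and -0.011 to 0.048 in the difference. Ccne1 was -0.072 to 0.041 in the difference without single libraries. The cause was not tested. Mcm4, Pcna, Pola1 and Rrm1 passed in the Ezh2a mutant with library totals (adjusted p = 0.0101 for Mcm4 and 0.0305 for Pcna). Mcm4 and Pola1 also passed when only the groups compared were fitted and without Ezh2b wild type replicate 3. Precision was lowest for Orc1, Gins1, Gins3 and Cdc6, whose standard errors were the widest.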
